A study of Mus musculus with 12 samples.

Results

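Of the 12 RNA sequencing libraries of this study, 8 held transcripts of macrophages and 4 did not, and the 8 are described here against the 4. The libraries were chosen by their level of Lyz2, a lysozyme gene of myeloid cells. It stood above 100 CPM (read counts scaled to a common library total) in the 8 and below 1 CPM in the 4. Lyz2 reached 182 to 1271 CPM in the 8 and 0 CPM in the 4, so no library lay between the limits. The split was therefore made on a measured value and not on a label, and the differences between the 8 and the 4 are given as sizes and counts with no test. The 4 libraries were Control 1, then ERI-R 3, then PAC-R 3 and then VIN-R 3, and values in the 4 are given in that order throughout. Each group thus held 2 libraries with the transcripts and 1 without.

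The libraries were made from PB3, a mouse breast cancer cell line that lacks the estrogen and progesterone receptors and HER2, grown in DMEM/F12 medium. Control was the parental line without drug. The other groups were derivatives of it selected with drugs that act on microtubules, ERI-R with eribulin, PAC-R with paclitaxel and VIN-R with vinorelbine. The treatment protocol lists 300, 500 and 800 nM for the selection, without the dose at which each derivative was kept, and it speaks of resistant clones. The labels name no macrophage culture and no animal host, and they describe all 12 samples as cells of the line. They number the replicates 1 to 3 in each group but do not say whether these were separate cultures, so p-values given below measure only the spread between these samples.

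Macrophages are phagocytes that engulf microbes and dying cells, digest them in lysosomes and present their fragments. Through Toll-like receptors and cytosolic sensors they detect microbial products, and then switch on NF-kB and interferon regulatory factors. This programme releases cytokines such as IL-1, IL-6 and TNF and draws in further leukocytes with chemokines. Type I interferons and interferon gamma act back on the macrophage and on its neighbours, including carcinoma cells, through STAT transcription factors. In breast tumours macrophages are among the most frequent immune cells.

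The 5 marker genes stood apart between the 8 and the 4 libraries. CPM from here on are scaled by the trimmed mean of M-values (TMM). Lyz2, a protein-coding gene on chromosome 10, 117277331-117282321 (GRCm38), had 0, 712 and 284 CPM in Control 1 to 3, 353, 232 and 0 CPM in ERI-R 1 to 3, 1399, 509 and 0 CPM in PAC-R 1 to 3 and 182, 1388 and 0 CPM in VIN-R 1 to 3. Ptprc, the leukocyte antigen CD45 (chromosome 1, 138062861-138175708), had 0.0722, 205 and 82.9 CPM in Control 1 to 3, 122, 74.6 and 0 CPM in ERI-R 1 to 3, 383, 153 and 0 CPM in PAC-R 1 to 3 and 58.996, 325 and 0 CPM in VIN-R 1 to 3. Csf1r, the receptor of macrophage colony-stimulating factor, stood at 0, 0, 0.746 and 0.0737 CPM in the 4 without and 36.9 to 209 CPM (median 64.98) in the 8 with. C1qa, a chain of complement C1q made mainly by macrophages (chromosome 4, 136895917-136898803), stood at 0 CPM in all 4 libraries without and 11.5 to 91.1 CPM (median 31.8) in the 8 with. Cd68, a lysosomal glycoprotein of macrophages (chromosome 11, 69664213-69666153), stood at 1.08, 2.73, 2.46 and 1.696 CPM in the 4 without and 38.9 to 379 CPM (median 97.6) in the 8 with. For none of the 5 did the lowest of the 8 libraries reach down to the highest of the 4. Per transcript length, in TPM (transcript counts divided by length and scaled to a common total), Lyz2 had the highest level of the 5, 847 ± 605 TPM over the 8 libraries (SD, n = 8). It was followed by Cd68 at 221 ± 179, C1qa at 73.7 ± 49.4, Ptprc at 60.6 ± 37.1 and Csf1r at 43.9 ± 30.5. Of these levels the last 3 lay within 1 SD of each other. The RNA is that of a whole culture, so fewer cells of a type and less RNA per cell cannot be told apart.

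**Figure D1:**
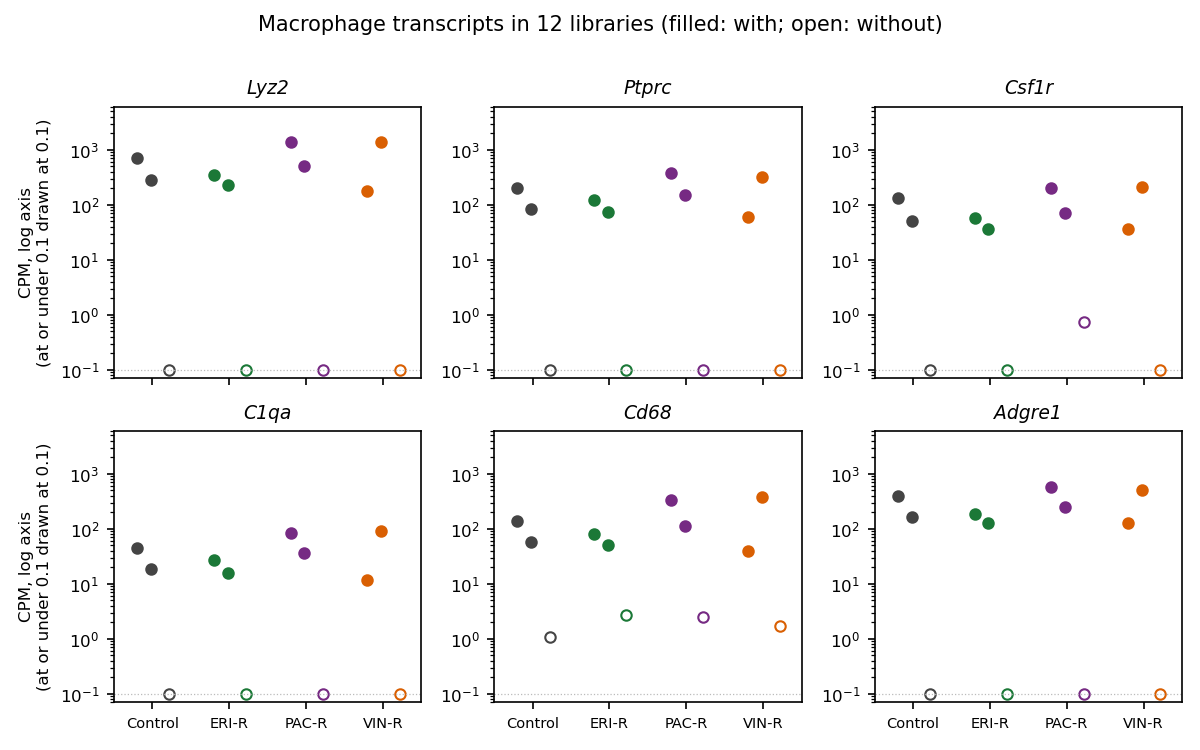
Levels of 6 macrophage transcripts in each of the 12 libraries, in TMM-scaled CPM on a log axis, by group. Filled points are the 8 libraries with the transcripts, open points the 4 without, and values at or under 0.1 CPM are drawn at 0.1. In all 6 panels the filled points lie above every open point, and within a group the 2 filled points keep the same order in each panel.

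A wider list of 24 macrophage and monocyte identity genes was then read, of which 22 passed the filter on low counts. A gene was counted as higher when, in each of the 4 groups, both libraries with the transcripts lay above the library without them and the fitted change was at least 2-fold, and as lower in the mirror case. By this rule 20 of 22 identity genes were higher, against 16.8% of all 14226 genes tested, and none was lower, against 8.93%. Of the 22, 10 had 0 counts in the 4 libraries, so they passed the filter through the 8 alone and could not be counted lower. These shares are therefore a description and not separate support for the label. The macrophage receptor gene Adgre1 (F4/80) stood at 0 CPM in all 4 libraries without and 128 to 585 CPM (median 217) in the 8 with, at least 4920.3-fold higher. The high-affinity immunoglobulin receptor gene Fcgr1 stood at 0 CPM in all 4 libraries without and 23.6 to 401 CPM (median 127) in the 8 with, at least 2662-fold higher. C1qb, a further chain of C1q, stood at 0 CPM in all 4 libraries without and 21.1 to 233 CPM (median 73.1) in the 8 with, at least 1692-fold higher. Such lower bounds set the mean of the 8 against a floor of 3 counts over the 4 libraries together. Cd14, the coreceptor for bacterial lipopolysaccharide, was 1 of the 2 tested genes that were not counted. It reached 163 CPM in ERI-R 3, above ERI-R 2 with 146 CPM, while Control 1, PAC-R 3 and VIN-R 3 had 17.2, 38.4 and 30.1 CPM.

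Some markers of neutrophils also stood higher in the 8 libraries, while several defining genes of T, B and mast cells were at or near 0. The T-cell gene Cd3e and the mast-cell genes Mcpt4 and Tpsb2 were at 0 CPM in all 12 libraries, and the B-cell gene Ms4a1 and the natural killer gene Ncr1 reached at most 0.183 and 0.152 CPM. Of 20 markers of T, B, natural killer and dendritic cells, 5 passed the filter. Of these 5, 2 were counted higher, Ighm and Ccr7, and none lower. All 20 together summed to 6.11 to 15.4 CPM in the 8 libraries and 4.62 to 10.6 CPM in the 4. Among 16 neutrophil and mast cell markers, 5 of 8 tested were higher. All 16 together summed to 31.002 to 373 CPM in the 8 and 10.3 to 48.5 CPM in the 4. S100a9, a calcium-binding protein of neutrophils and monocytes, stood at 0, 0.105, 0 and 0 CPM in the 4 without and 6.35 to 129 CPM (median 37.5) in the 8 with. Ngp, a granule protein of neutrophils, stood at 0 CPM in all 4 libraries without and 5.85 to 111 CPM (median 22.97) in the 8 with. The defining neutrophil gene Ly6g was at 0 CPM in the 8 libraries and at most 0.0746 CPM in the 4, and Mpo (myeloperoxidase) reached 5.57 CPM in the 8 and 0 in the 4.

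Of 22 markers of fibroblasts, endothelial cells, adipocytes, erythroid and muscle cells, 5 of 8 tested were higher. All 22 together summed to 38.6 to 153 CPM in the 8 and 20.9 to 91.6 CPM in the 4. The fatty acid carrier gene Fabp4 stood at 0.144, 1.58, 0.448 and 0.147 CPM in the 4 without and 2.42 to 35.8 CPM (median 8.66) in the 8 with. Kdr, a receptor of vascular endothelial growth factor, stood at 0.144, 0, 0 and 0 CPM in the 4 without and 0.669 to 7.39 CPM (median 2.202) in the 8 with. The proteoglycan gene Dcn stood at 0.0722, 0, 0 and 0 CPM in the 4 without and 0.175 to 2.56 CPM (median 1.1) in the 8 with. The endothelial gene Cldn5, the fibroblast gene Dpt and the erythroid genes Hbb-bs and Hba-a1 were at 0 CPM in all 12 libraries. The part of these other cell markers in the results below was not tested.

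The libraries differed little in depth and more in composition. The total of expected counts ran from 11141028 to 13454395, so that 3 counts make 0.223 to 0.269 CPM. Mitochondrially encoded genes took 2.99% to 4.16% of the counts in the 8 libraries and 1.32% to 2.11% in the 4. ERI-R 3 stood apart from the other 3 libraries without macrophage transcripts. Ribosomal protein genes took 16.8% of its counts, against 5.79%, 9.04% and 6.89% in Control 1, PAC-R 3 and VIN-R 3 and 3.85% to 6.52% in the 8. A principal component analysis separated the 8 from the 4 on its first axis, which carried 48.1% of the variance. The part of these composition differences in the results below was not tested. The counts of higher and lower genes, the interaction counts and some list medians are given also without ERI-R 3. Other results, among them those by transcript length and the counts within lists, are not.

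Across all 14226 tested genes, 2396 (16.8%) were counted higher and 1270 (8.93%) lower in the libraries with macrophage transcripts. The higher genes had a median log2 change of 1.85, with 1092 differing at least 4-fold and 598 at least 16-fold, and 214 of them had 0 counts in the 4 libraries. A gene with 0 counts in the 4 could not be counted lower. Lower genes differed less, with a median of -1.27, 47 at least 4-fold and 2 at least 16-fold. The median over all tested genes was 0.06. Just inside the 2-fold limit were Lin9 at a log2 change of 1.0012 and Emg1 at -1.0001. Just outside were Galnt7 at 0.9995 and Rnf187 at -0.9988. Without ERI-R 3, 2383 genes were higher and 882 lower. With the stricter demand that all 8 libraries lie on 1 side of all 4, 1605 genes (11.3%) were higher and 600 (4.22%) lower. The higher genes took 15.98% to 28.2% of the counts of the 8 libraries and 2.94% to 10.3% of the counts of the 4, and the lower genes 5.59% to 10.1% and 11.4% to 25.3%.

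The largest differences were those of genes with 0 counts in the 4 libraries. Beside Lyz2, the 12 higher genes of largest fitted size were Acod1, Plek, Ctss, Clec4e, Cybb, Il1a, Il1b, Slamf7, Cd36, Ccl3, Gbp5 and Nos2, and all 12 had 0 counts in each of the 4. Acod1, whose enzyme makes itaconate in activated macrophages, had 0, 979 and 391 CPM in Control 1 to 3, 545, 354 and 0 CPM in ERI-R 1 to 3, 1884, 736 and 0 CPM in PAC-R 1 to 3 and 270.4, 1658 and 0 CPM in VIN-R 1 to 3, at least 14297-fold higher. Plek, the protein kinase C substrate pleckstrin, stood at 191 to 1322 CPM (median 442) in the 8 with and was at least 10059-fold higher. Clec4e, the receptor Mincle for mycobacterial and fungal glycolipids, stood at 217 to 952 CPM (median 363) in the 8 with and was at least 8242-fold higher. Cd36, a scavenger receptor for oxidised lipids, stood at 111 to 964 CPM (median 258) in the 8 with. Slamf7, a receptor of activated leukocytes, stood at 108 to 956 CPM (median 312) in the 8 with.

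Phagocytic and lysosomal genes were higher in 18 of 24 tested members, with a median log2 change of 5.60, and none was lower. Cybb, the catalytic subunit of the phagocyte NADPH oxidase, stood at 202 to 982 CPM (median 362) in the 8 with and was at least 8212-fold higher, and the cysteine protease gene Ctss at 158 to 1231 CPM (median 394) in the 8 with and at least 9191-fold higher. Itgal, the integrin chain CD11a, stood at 32.3 to 134 CPM (median 54.9) in the 8 with, at least 1169-fold higher. Lysosomal genes that the 4 libraries also carried changed less, and Ctsl, cathepsin L, stood at 1549, 115, 1893 and 2099.6 CPM in the 4 without and 259.5 to 1939 CPM (median 1419) in the 8 with, so that the sets overlapped. In ERI-R the tetraspanin gene Cd63 had 127, 148 and 318 CPM in libraries 1 to 3, against 589.5, 594 and 505 CPM in Control 1 to 3.

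Promoter sequences were read for the genes that stood high together, to show the letters that factors of macrophages are known to bind. The windows were the 300 bases around the RefSeq gene start on GRCm38.p6, 250 before it and 50 after, and 1688 of the higher genes matched a window. Of the 24 identity genes, counted higher or not, 17 matched. GAGGAAGT, the letters bound by PU.1, the factor encoded by Spi1, was found on either strand in 7.17% of the promoters of higher genes, 2.91% of those of lower genes and 3.69% of all 27025 promoters. Among the identity genes 2 of 17 promoters held it. In the stretches of these windows from genes of C1q and of an activating immunoglobulin receptor, the capitals mark these letters or their reverse complement, and each is printed 5′ to 3′ on the strand of its gene, with the coordinates of the stretch.
C1qc, chr4:136893067-136893144, minus strand: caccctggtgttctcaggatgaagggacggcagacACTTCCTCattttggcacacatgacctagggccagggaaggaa
Fcgr4, chr1:171018867-171018925, plus strand: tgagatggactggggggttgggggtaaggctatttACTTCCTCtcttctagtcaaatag
C1qc, the third chain of C1q, stood at 0 CPM in all 4 libraries without and 19.3 to 166 CPM (median 52.9) in the 8 with, and Fcgr4 at 0.144, 0, 0.224 and 0.147 CPM in the 4 without and 6.77 to 129 CPM (median 40.5) in the 8 with.

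Markers of macrophage activation covered both of the states into which macrophages are often sorted in culture. Of the tested activation genes 17 of 23 were higher, none lower, with a median of 6.09. Nos2, the inducible nitric oxide synthase of cells activated with interferon gamma and lipopolysaccharide, had 0, 321 and 84.2 CPM in Control 1 to 3, 255, 164 and 0 CPM in ERI-R 1 to 3, 782, 328 and 0 CPM in PAC-R 1 to 3 and 55.6, 573 and 0 CPM in VIN-R 1 to 3, at least 5378-fold higher. Arg1, the arginase of alternatively activated macrophages, stood at 0.722, 3.47, 0.821 and 1.696 CPM in the 4 without and 1.84 to 17.3 CPM (median 7.56) in the 8 with. For Arg1 the log2 change was 2.41 ± 0.69 (SE). In this gene ERI-R 3 lay above VIN-R 1. Msr1, a scavenger receptor, stood at 89.5 to 663 CPM (median 221) in the 8 with and was at least 4925-fold higher. Spp1 (osteopontin) and Ptgs2 (cyclooxygenase 2), named here because they differed between lines among the 8 libraries, were high in libraries without macrophage transcripts as well. Spp1 had 3578, 3816 and 4315 CPM in Control 1 to 3 and 1215, 768 and 250.3 CPM in ERI-R 1 to 3. Ptgs2 had 1539, 1915 and 2487 CPM in Control 1 to 3, 461, 298 and 2.63 CPM in ERI-R, 2439, 2719.8 and 551 CPM in PAC-R and 1890, 3472 and 1335 CPM in VIN-R. In every group the library without macrophage transcripts had the lowest Ptgs2.

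Sensors of microbial products were higher in most members. Of 26 genes of Toll-like, RIG-I-like, cGAS-STING and inflammasome sensing, 22 were higher and none lower, with a median log2 change of 3.41. Tlr2, the receptor of bacterial lipopeptides, stood at 3.83, 13.4, 3.66 and 2.88 CPM in the 4 without and 16.9 to 100.9 CPM (median 46.3) in the 8 with. In Tlr2 the log2 difference was 3.31 ± 0.68 (SE). Nlrp3, the sensor of an inflammasome that activates caspase 1, stood at 0, 0.105, 0.0746 and 0 CPM in the 4 without and 22.8 to 164 CPM (median 55.3) in the 8 with, a ratio of 1908 (95% counting interval 528 to 15754). Tlr13, a receptor of bacterial ribosomal RNA, stood at 0, 0, 0 and 0.0737 CPM in the 4 without and 10.4 to 90.9 CPM (median 23.2) in the 8 with, a ratio of 1820.3 (95% counting interval 327 to 71896). The 4 genes of this list not counted were the adaptors Myd88 and Ticam1 and the pair Cgas and Tmem173 that senses cytosolic DNA, with log2 changes of 0.93, 0.31, 0.53 and -0.57. These 4 were named after their values were seen.

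NF-kB subunits, inhibitors and feedback genes were higher in 15 of 24 members and lower in 1, with a median of 1.67. Icam1, an adhesion molecule for leukocytes, stood at 0.0722, 0.42, 0.224 and 0.369 CPM in the 4 without and 31.3 to 287 CPM (median 81.3) in the 8 with. For Icam1 the log2 change was 8.81 ± 0.95 (SE). Tnip3, an inhibitor of NF-kB signalling, stood at 0.722, 0.42, 1.19 and 0.885 CPM in the 4 without and 18.1 to 247 CPM (median 89.7) in the 8 with. Traf1, a TNF receptor adaptor, stood at 0.433, 0.63, 2.76 and 1.696 CPM in the 4 without and 16.3 to 79.1 CPM (median 27.1) in the 8 with. Sod2, the mitochondrial superoxide dismutase and a known NF-kB target, stood at 36.9, 71.9, 44.2 and 40.9 CPM in the 4 without and 141 to 596 CPM (median 258) in the 8 with. In Sod2 the log2 difference was 2.66 ± 0.48 (SE). Nfkbia, the inhibitor IkB alpha, was not counted because of 1 library: ERI-R 3 had 241 CPM, above ERI-R 1 and 2 with 115 and 96.3 CPM, while in the other groups it was lowest in the library without macrophage transcripts. Ier3, an early response gene, was the lower member, at 239, 91.9, 362 and 374 CPM in the 4 without and 40.7 to 241 CPM (median 135) in the 8 with.

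Over the list of 30 tested cytokines and receptors 14 were higher and none lower, with a median of 1.27. Il1b had 0, 498 and 179.6 CPM in Control 1 to 3, 293, 196 and 0 CPM in ERI-R 1 to 3, 933, 384 and 0 CPM in PAC-R 1 to 3 and 135, 674 and 0 CPM in VIN-R 1 to 3, at least 6908-fold higher. Its relative Il1a stood at 124 to 1025 CPM (median 343) in the 8 with and was at least 7198-fold higher. Il6 had 0.0722, 49.996 and 20.8 CPM in Control 1 to 3, 29.1, 18.7 and 0 CPM in ERI-R 1 to 3, 142, 46.6 and 0 CPM in PAC-R 1 to 3 and 12.7, 119 and 0.0737 CPM in VIN-R 1 to 3, a ratio of 1381 (95% counting interval 382 to 11405). Tnf stood at 0, 4.41, 0 and 0 CPM in the 4 without and 43.4 to 373 CPM (median 100.2) in the 8 with. For Tnf the log2 change was 7.69 ± 1.61 (SE). Among the 4 it was detected only in ERI-R 3. Il12b, a subunit of the T-cell activating cytokines IL-12 and IL-23, stood at 7.69 to 115 CPM (median 36.7) in the 8 with and was at least 770.0-fold higher. Ifnb1, the type I interferon named after its value was seen, stood at 0 CPM in all 4 libraries without and 0.418 to 7.67 CPM (median 1.32) in the 8 with, at least 42.04-fold higher.

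Growth factors for macrophages and granulocytes were not counted in either direction. Csf1, the ligand of Csf1r, stood at 190.2, 37.9, 199 and 199.5 CPM in the 4 without and 52.7 to 124 CPM (median 100.7) in the 8 with. In Csf1 the log2 difference was -0.57 ± 0.23 (SE). It was highest in the library without macrophage transcripts in Control, PAC-R and VIN-R and lowest there in ERI-R. Il34, the other ligand of that receptor, stood at 15.6, 5.88, 21.1 and 16.6 CPM in the 4 without and 1.75 to 26.2 CPM (median 10.8) in the 8 with, and Csf3 at 9.45, 9.88, 6.49 and 10.03 CPM in the 4 without and 3.35 to 12.1 CPM (median 6.05) in the 8 with. Csf2, the granulocyte-macrophage factor, had 27.8, 34.1 and 28.9 CPM in Control 1 to 3, 1.45, 1.37 and 0 CPM in ERI-R 1 to 3, 39.2, 45.6 and 40.97 CPM in PAC-R 1 to 3 and 108, 56.4 and 45.3 CPM in VIN-R 1 to 3, so that ERI-R lay below the other groups in every library.

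The chemokines were among the groups with the largest changes, with 18 of 21 tested genes higher, none lower and a median of 7.34 (7.20 at the bound). At the bound means that genes with 0 counts in the 4 are set at their lower bound, since their fitted change depends on the prior count. Ccl2, which recruits monocytes, had 1.01, 138 and 53.9 CPM in Control 1 to 3, 78.8, 53.6 and 0.735 CPM in ERI-R 1 to 3, 325, 118 and 2.31 CPM in PAC-R 1 to 3 and 34.6, 296 and 1.47 CPM in VIN-R 1 to 3. For Ccl2 the log2 change was 6.61 ± 0.73 (SE). Ccl3 and Ccl4, which attract monocytes and lymphocytes, were nearly absent from the 4. Ccl3 stood at 132 to 793 CPM (median 246) in the 8 with and was at least 6357-fold higher. Ccl4 stood at 0.0722, 0, 0 and 0 CPM in the 4 without and 43.8 to 313 CPM (median 88.3) in the 8 with, a ratio of 6913 (95% counting interval 1241 to 273040). Ccl5, a further attractant of T cells and monocytes, stood at 2.45, 4.83, 3.88 and 4.28 CPM in the 4 without and 150.5 to 761 CPM (median 311) in the 8 with. The neutrophil attractant Cxcl1 stood at 3.46, 0, 6.94 and 6.34 CPM in the 4 without and 8.61 to 128 CPM (median 27.9) in the 8 with. Cxcl9, an interferon gamma target, stood at 0, 0.105, 0 and 0 CPM in the 4 without and 8.27 to 239 CPM (median 66.4) in the 8 with. Cxcl10, an interferon target, stood at 2.96, 1.16, 3.43 and 3.91 CPM in the 4 without and 75.7 to 1099 CPM (median 325) in the 8 with. For each of these 7 genes the lowest of the 8 libraries lay above the highest of the 4. Cxcl12, made by stromal and mesenchymal cells, was not counted, at 197, 1.05, 159 and 187 CPM in the 4 without and 3.28 to 132 CPM (median 111) in the 8 with.

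The letters GGGA and TTTCC of a kappa-B site, with any base between them, were found in 3 of 23 promoters of the cytokine list, 3 of 17 of the chemokine list and 2 of 19 of the NF-kB list, against 0.466% of all promoters. They were in 1.01% of the promoters of higher genes and 0.602% of those of lower genes. In these stretches from the genes of a cytokine, a chemokine and a cytokine receptor the letters or their reverse complement are in capitals.
Il6, chr5:30013035-30013113, plus strand: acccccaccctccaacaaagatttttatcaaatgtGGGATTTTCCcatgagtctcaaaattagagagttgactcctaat
Cxcl2, chr5:90903767-90903846, plus strand: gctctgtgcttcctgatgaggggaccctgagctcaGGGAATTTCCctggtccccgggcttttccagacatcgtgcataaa
Ifngr2, chr16:91546949-91547028, plus strand: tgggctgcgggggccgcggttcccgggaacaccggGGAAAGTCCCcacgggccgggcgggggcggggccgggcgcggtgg
Cxcl2, a neutrophil chemokine, stood at 0.0722, 0, 0 and 0.0737 CPM in the 4 without and 22.4 to 189 CPM (median 51.7) in the 8 with. Ifngr2, a chain of the interferon gamma receptor, stood at 26.2, 30.6, 25.8 and 23.5 CPM in the 4 without and 32.9 to 102 CPM (median 66.6) in the 8 with.

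**Figure D2:**
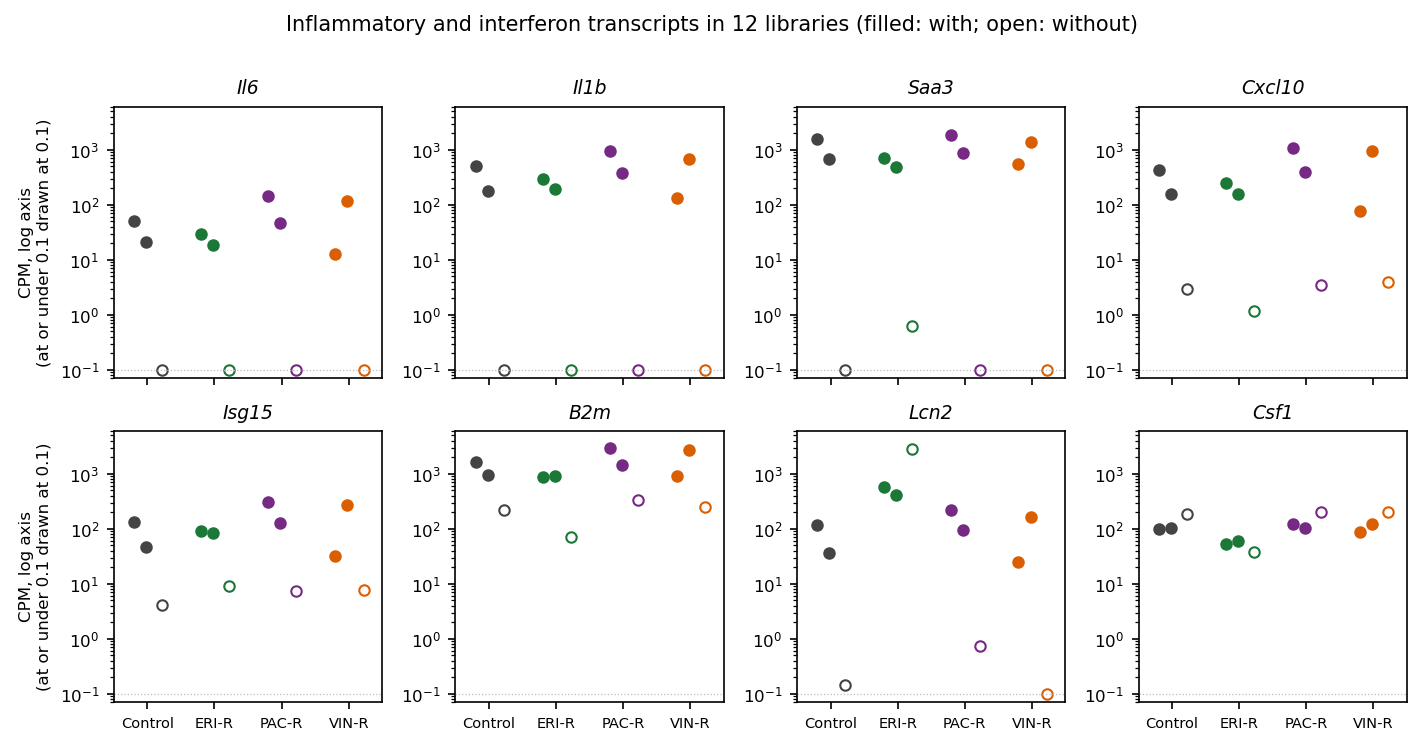
Levels of 8 inflammatory and interferon transcripts in each library, in TMM-scaled CPM on a log axis, with filled points for the 8 libraries with macrophage transcripts and open points for the 4 without (values at or under 0.1 CPM drawn at 0.1). Il6, Il1b, Saa3, Cxcl10, Isg15 and B2m lie higher in all filled points, Lcn2 is highest in the open point of ERI-R, and Csf1 overlaps.

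Acute-phase genes and STAT3 targets were higher in 5 of 14 tested members, with a median of 1.56. Saa3, a serum amyloid A gene expressed by macrophages and epithelia in inflammation, had 0, 1604 and 667 CPM in Control 1 to 3, 707, 496 and 0.63 CPM in ERI-R 1 to 3, 1878, 876 and 0 CPM in PAC-R 1 to 3 and 548, 1392 and 0 CPM in VIN-R 1 to 3. In Saa3 the log2 difference was 12.83 ± 1.09 (SE). Per length it stood at 4279.7 ± 1933 TPM (SD, n = 8), above Lyz2 on the same scale. Its level varied less over the 8 libraries than that of Lyz2, with a highest value of 1878 and a lowest of 496 CPM. Lcn2, the siderophore-binding protein lipocalin 2, had 0.144, 117 and 35.8 CPM in Control 1 to 3, 566, 406 and 2838 CPM in ERI-R 1 to 3, 219, 97.3 and 0.746 CPM in PAC-R 1 to 3 and 25.2, 163 and 0 CPM in VIN-R 1 to 3. It was higher with macrophage transcripts in Control, PAC-R and VIN-R and lower in ERI-R, so it was not counted. The serpins Serpina3f and Serpina3g were higher at 0.752 to 12.9 CPM (median 3.38) in the 8 with and 1.25 to 23.2 CPM (median 5.298) in the 8 with.

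Complement and coagulation genes were higher in 8 of 16 tested members, none lower, with a median of 1.80. C3ar1, the receptor of the C3a fragment, stood at 0.361, 0.105, 0.149 and 0.516 CPM in the 4 without and 87.7 to 780.1 CPM (median 252) in the 8 with. For C3ar1 the log2 change was 10.11 ± 0.94 (SE). Cfb, factor B of the alternative pathway, stood at 0, 0.525, 0 and 0.0737 CPM in the 4 without and 35.7 to 247 CPM (median 96.5) in the 8 with. In Cfb the log2 difference was 9.65 ± 1.02 (SE). C3 itself was counted, although ERI-R 3 with 57.9 CPM exceeded VIN-R 1 with 37.2 CPM, and its log2 change was 5.77 ± 1.83 (SE). F10, coagulation factor X, stood at 0, 0, 0.0746 and 0 CPM in the 4 without and 2.76 to 21.2 CPM (median 8.22) in the 8 with, a ratio of 492.9 (95% counting interval 88.5 to 19469).

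Interferon-stimulated genes stood higher as a group, in 31 of 36 members with none lower and a median of 4.57. Their mean log2 CPM lay at 4.94 to 8.05 in the 8 libraries and 1.83 to 2.47 in the 4. Isg15, a ubiquitin-like modifier, had 4.19, 131 and 45.9 CPM in Control 1 to 3, 92.6, 85.5 and 9.35 CPM in ERI-R 1 to 3, 311, 127 and 7.31 CPM in PAC-R 1 to 3 and 31.8, 277 and 7.59 CPM in VIN-R 1 to 3. For Isg15 the log2 change was 4.19 ± 0.66 (SE). Rsad2, the antiviral enzyme viperin, stood at 0.505, 1.47, 2.69 and 4.72 CPM in the 4 without and 243 to 4429 CPM (median 1266) in the 8 with. In Rsad2 the log2 difference was 9.59 ± 1.03 (SE). Cmpk2, a mitochondrial nucleotide kinase next to it in the genome, stood at 0.361, 0, 1.27 and 1.92 CPM in the 4 without and 101.2 to 1785 CPM (median 490.2) in the 8 with. Mx1, an antiviral GTPase, stood at 0.361, 0.315, 0.522 and 0.147 CPM in the 4 without and 34.1 to 549 CPM (median 170.3) in the 8 with. Irf7, the factor that amplifies type I interferon, stood at 3.03, 12.2, 5.67 and 3.24 CPM in the 4 without and 59.6 to 608 CPM (median 209) in the 8 with. For Irf7 the log2 change was 5.49 ± 0.81 (SE). The 5 members not counted were Isg20, Ifi35, Ifitm3, Bst2 and Adar, named after their values were seen, with log2 changes between -0.06 and 1.71. All 36 genes were measurable in the 4 libraries, where none had 0 counts over the 4.

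The interferon-inducible GTPases, which attack the vacuoles of intracellular microbes, were higher in 15 of 16 tested members with a median of 5.17 (5.01 at the bound). Gbp5 stood at 59.9 to 995 CPM (median 292) in the 8 with and was at least 6412-fold higher. Gbp2 stood at 7.36, 4.098, 9.104 and 6.71 CPM in the 4 without and 72.1 to 1070.1 CPM (median 318) in the 8 with. For Gbp2 the log2 change was 5.81 ± 0.77 (SE). Iigp1, an immunity-related GTPase, stood at 0.0722, 0.735, 1.12 and 0.958 CPM in the 4 without and 21.3 to 473 CPM (median 136) in the 8 with. Tgtp2, whose reads may be shared with its copy Tgtp1, stood at 0.217, 0.21, 0.149 and 0 CPM in the 4 without and 20.6 to 457 CPM (median 134) in the 8 with. Irgm1, named after its value was seen, was the member not counted, at a log2 change of 1.78 ± 0.49 (SE).

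The letters GAAA and GAAA of an interferon-stimulated response element, with any 2 bases between them, were in the promoters of 14 of 28 matched interferon-stimulated genes and 9 of 10 GTPases, against 3.99% of all promoters. They were found in 7.998% of promoters of higher genes and 3.01% of promoters of lower genes. In these stretches from an antiviral enzyme, an antiviral RNA-binding protein, a chemokine and the light chain of MHC class I, the letters or their reverse complement are in capitals.
Rsad2, chr12:26456528-26456607, minus strand: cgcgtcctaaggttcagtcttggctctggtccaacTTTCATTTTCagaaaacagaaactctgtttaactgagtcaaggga
Ifit1, chr19:34640769-34640848, plus strand: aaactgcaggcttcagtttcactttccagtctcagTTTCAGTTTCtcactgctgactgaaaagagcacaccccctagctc
Cxcl10, chr5:92349058-92349137, minus strand: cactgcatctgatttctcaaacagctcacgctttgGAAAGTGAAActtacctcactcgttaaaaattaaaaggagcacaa
B2m, chr2:122147513-122147592, plus strand: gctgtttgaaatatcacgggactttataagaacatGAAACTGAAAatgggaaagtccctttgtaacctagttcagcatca
Rsad2, Ifit1, Cxcl10 and B2m had mean levels of 1709, 472, 443 and 1564 CPM over the 8 libraries and 2.35, 7.75, 2.86 and 219 CPM over the 4. Stretches to print were taken only from the bases before the gene start, so the letters of all 9 lie there by choice. In all, 11 sets of letters were searched on both strands, and not all of them were more frequent among higher genes. In the sets below N is any base. The letters TTGCNNAA of a C/EBP site were in 12.2% of promoters of higher genes, 9.24% of lower genes and 12.2% of all. For TTCNNNGAA, a GAS element, these shares were 9.72%, 8.43% and 9.55%. Values of the remaining sets are not given here. A match describes the sequence, and no binding was measured here.

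Antigen presentation genes of both classes were higher. In class I, B2m and H2-K1 were well detected in all libraries, while H2-Q6, H2-Q7 and Psmb9 were at or near the floor in some. Of the class I genes 16 of 20 were higher, none lower, with a median of 1.69. B2m, the light chain, had 224, 1658 and 958 CPM in Control 1 to 3, 871, 911 and 72.6 CPM in ERI-R 1 to 3, 2949.7, 1456 and 332 CPM in PAC-R 1 to 3 and 931, 2773 and 246 CPM in VIN-R 1 to 3. In B2m the log2 difference was 2.93 ± 0.38 (SE). H2-K1, a classical heavy chain, stood at 139, 184, 222 and 164 CPM in the 4 without and 272 to 853 CPM (median 348) in the 8 with. For H2-K1 the log2 change was 1.33 ± 0.35 (SE). The non-classical heavy chain gene H2-Q6 stood at 0, 0.841, 0.0746 and 0.0737 CPM in the 4 without and 25.7 to 127 CPM (median 49.1) in the 8 with. H2-Q7, a close relative whose reads may be shared with it, stood at 0.217, 5.36, 0.298 and 1.25 CPM in the 4 without and 20.2 to 92.2 CPM (median 38.5) in the 8 with. Psmb9, an immunoproteasome subunit, stood at 0.217, 1.79, 0.448 and 0.295 CPM in the 4 without and 1.75 to 28.2 CPM (median 10.8) in the 8 with. Of the class II genes 5 of 7 tested were higher, at low levels. The class II alpha chain H2-Aa stood at 0 CPM in all 4 libraries without and 0.609 to 5.29 CPM (median 1.37) in the 8 with. Cd74, the invariant chain, stood at 0, 0.841, 0 and 0 CPM in the 4 without and 4.18 to 21.4 CPM (median 8.11) in the 8 with. Per length, Cd74 had 16.3 ± 9.21 TPM and Ctss, the protease that trims it, 712 ± 492 TPM (SD, n = 8).

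**Figure D3:**
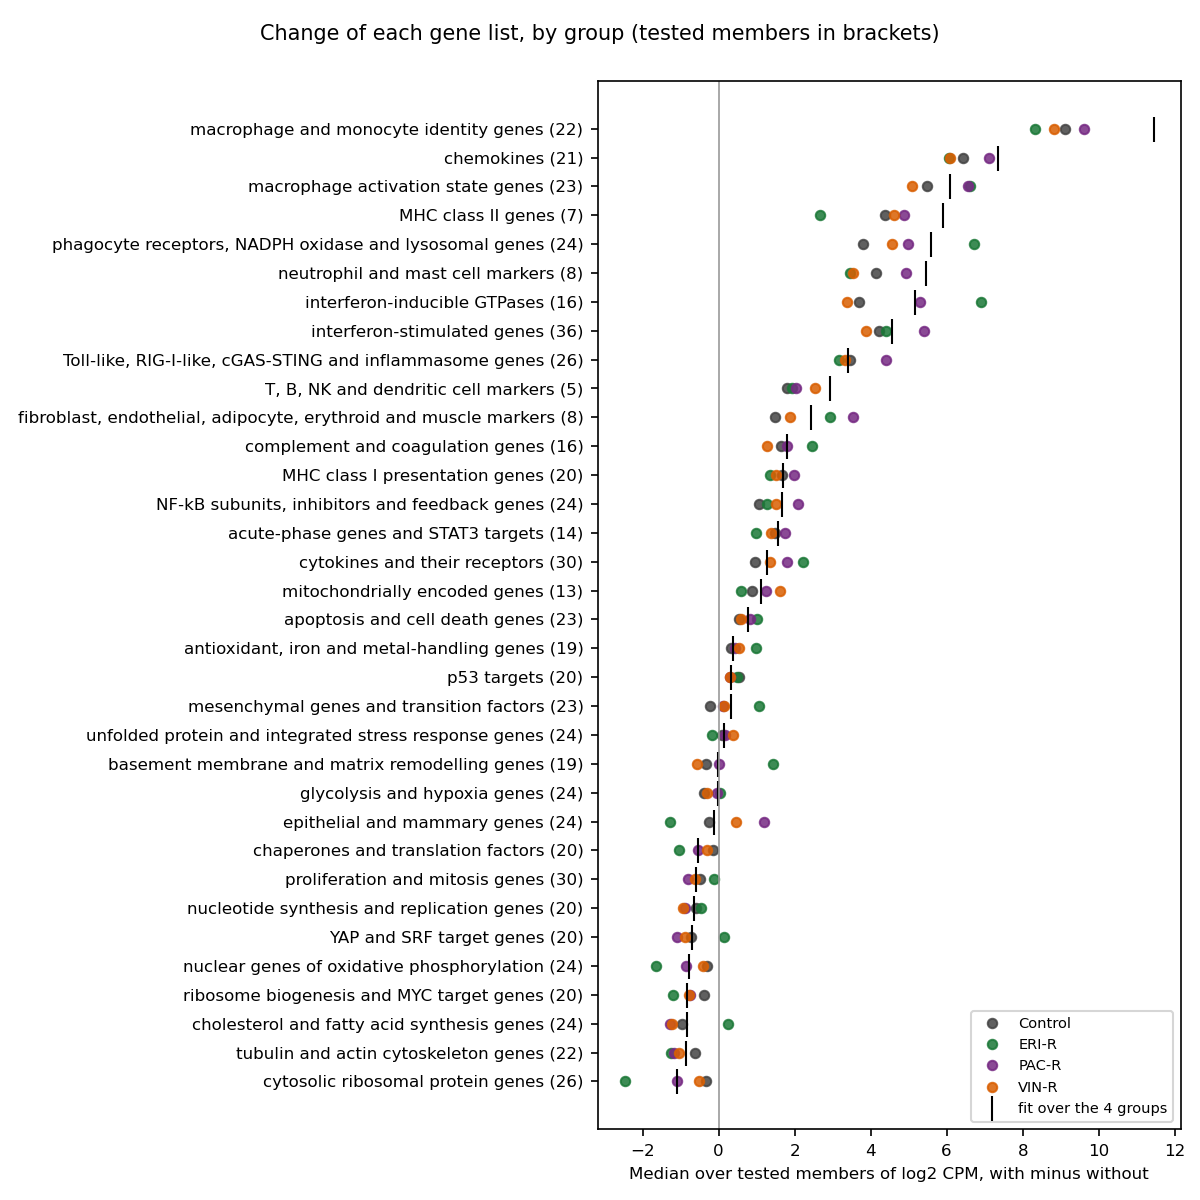
Median over the tested members of each of 34 gene lists of the difference in log2 CPM (with a prior count of 1) between the libraries with and without macrophage transcripts, by group (coloured points), with the median of the fitted log2 change over the 4 groups as a black mark. The fit has a smaller prior count, which carries the mark beyond the points where many members were at 0. The macrophage, chemokine, interferon and sensing lists lie right of 0 in all 4 groups and the ribosomal protein, tubulin and nuclear oxidative phosphorylation lists left of it in all 4.

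The amount of macrophage transcript also differed within each pair of libraries that held them. The pairs were ordered by Lyz2, the gene that made the split, and the genes counted higher were chosen by that split. The comparison within pairs is therefore given as a description and not as separate support. The library with more Lyz2 exceeded the other of its group by 1.32 in Control, 0.60 in ERI-R, 1.46 in PAC-R and 2.93 in VIN-R on the log2 scale. Macrophage identity genes differed in the same direction by medians of 1.39 in Control, 0.64 in ERI-R, 1.35 in PAC-R and 2.69 in VIN-R, and all 22 were higher in the Lyz2-richer library of all 4 pairs, against 14.1% of all tested genes. Chemokine medians were 1.36 in Control, 0.66 in ERI-R, 1.45 in PAC-R and 2.93 in VIN-R. NF-kB list medians were 0.93 in Control, 0.53 in ERI-R, 1.13 in PAC-R and 1.67 in VIN-R, with 22 of 24 genes higher in all 4 pairs. The median over all tested genes was 0.08 in Control, 0.07 in ERI-R, 0.08 in PAC-R and 0.01 in VIN-R. Of the 2396 genes counted higher, 963 (40.2%) followed Lyz2 in all 4 pairs, and of the 598 with at least 16-fold change 537 (89.8%) did. Of the 1798 higher genes under 16-fold 426 (23.7%) did.

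In the ERI-R pair the median interferon gene differed by less than Lyz2. Interferon-stimulated genes differed by medians of 1.47 in Control, 0.06 in ERI-R, 1.29 in PAC-R and 3.08 in VIN-R, and class I genes by 1.15 in Control, 0.12 in ERI-R, 1.21 in PAC-R and 1.77 in VIN-R. Irf7 had 179 CPM in ERI-R 1, the library of the pair with more Lyz2, and 167 CPM in ERI-R 2. In VIN-R, where Lyz2 differed most, Irf7 stood at 59.6 and 513 CPM.

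**Figure D4:**
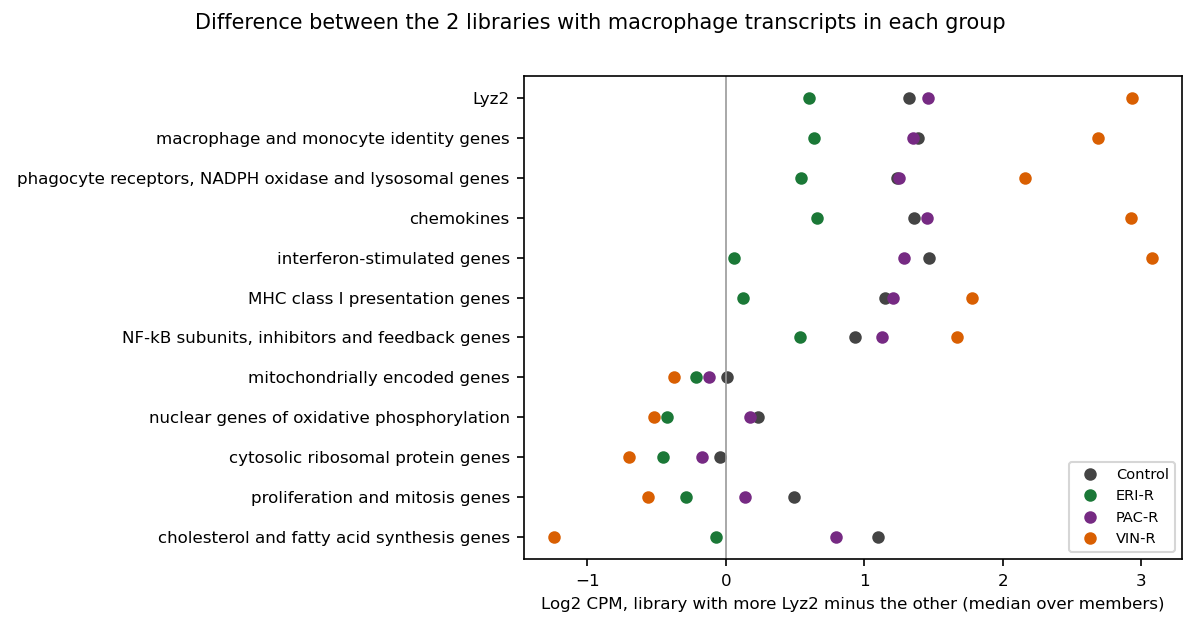
Difference in log2 CPM between the library with more Lyz2 and the other library with macrophage transcripts, by group, for Lyz2 and as the median over the tested members of 11 gene lists. Lyz2 and the identity, phagocyte and chemokine genes lie above 0 in all 4 groups, lowest in ERI-R and highest in VIN-R. The interferon genes lie near 0 in ERI-R, and the sterol list lies above 0 in Control and PAC-R and below 0 in VIN-R.

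By likeness of pattern over the 8 libraries, the 8 genes nearest to Lyz2 were Ptafr, Itga4, Dock10, Plek, Ucp2, Myo1g, Il10ra and Fcer1g, with Pearson r of log2 CPM between 0.9975 and 0.9990 (a description over 8 libraries in 4 pairs). Ptafr, the receptor of platelet-activating factor, stood at 0, 0, 0.0746 and 0 CPM in the 4 without and 12.6 to 118 CPM (median 34.4) in the 8 with. Itga4, the integrin alpha 4 chain, stood at 0 CPM in all 4 libraries without and 18.5 to 122 CPM (median 39.5) in the 8 with. Il10ra, the receptor of interleukin 10, stood at 0, 0, 0 and 0.0737 CPM in the 4 without and 6.43 to 56.1 CPM (median 17.5) in the 8 with. Fcer1g, the signalling chain of activating immunoglobulin receptors, stood at 0, 0.841, 0.0746 and 0.147 CPM in the 4 without and 48.4 to 309 CPM (median 111) in the 8 with. Ucp2, a mitochondrial carrier, was alone of the 8 in not being counted, with 22.4 CPM in ERI-R 3 against 16.5 CPM in ERI-R 2.

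Genes that stood higher differed in how far they followed Lyz2 within the pairs. Lox, the lysyl oxidase that crosslinks collagen, had 0.289, 72.6 and 35.9 CPM in Control 1 to 3, 20.9, 18.7 and 0 CPM in ERI-R 1 to 3, 42.9, 21.5 and 0.448 CPM in PAC-R 1 to 3 and 32.01, 35.6 and 0.295 CPM in VIN-R 1 to 3. Within the VIN-R pair Lox differed by 0.15 on the log2 scale where Lyz2 differed by 2.93. Slc7a11, the cystine importer, had 56.01, 191 and 321 CPM in Control 1 to 3, 119, 59.9 and 5.46 CPM in ERI-R 1 to 3, 202, 292 and 11.1 CPM in PAC-R 1 to 3 and 125, 329 and 16.4 CPM in VIN-R 1 to 3. It was lower in the Lyz2-richer library of Control and PAC-R. Trp53inp1, a p53 target, had 39.8, 81.1 and 286 CPM in Control 1 to 3, 219, 597 and 18.8 CPM in ERI-R 1 to 3, 74.3, 147 and 17.6 CPM in PAC-R 1 to 3 and 72.9, 141 and 25.4 CPM in VIN-R 1 to 3. It was lower in the Lyz2-richer library of 3 pairs. Hmox1, the heme oxygenase of macrophages and of oxidative stress, stood at 13.7, 20.7, 23.6 and 23.4 CPM in the 4 without and 209.8 to 669 CPM (median 301) in the 8 with. Its log2 change was 4.25 ± 0.43 (SE), and it was higher in the Lyz2-richer library of all 4 pairs. Bnip3, a hypoxia gene, stood at 18.8, 4.41, 16.4 and 23.5 CPM in the 4 without and 33.9 to 138 CPM (median 87.5) in the 8 with. Among cell death genes the BCL2 relative Bcl2a1b stood at 27.6 to 197 CPM (median 60.4) in the 8 with and was at least 1479-fold higher.

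Of the mitochondrially encoded genes 7 of 13 stood higher and none lower, with a median of 1.11. mt-Co3, a subunit of cytochrome oxidase, had 160.2, 2741 and 2514 CPM in Control 1 to 3, 1181, 2307 and 646 CPM in ERI-R 1 to 3, 2939.6, 2510.5 and 456 CPM in PAC-R 1 to 3 and 4138, 3475 and 83.3 CPM in VIN-R 1 to 3. In mt-Co3 the log2 difference was 3.12 ± 0.62 (SE). mt-Atp8, a subunit of ATP synthase, stood at 129.7, 27.5, 69.1 and 86.9 CPM in the 4 without and 456 to 881 CPM (median 628) in the 8 with. mt-Atp6, a further subunit, stood at 221, 258, 474 and 102 CPM in the 4 without and 554 to 1827 CPM (median 1023) in the 8 with. Within the pairs these genes did not follow Lyz2, with medians of 0.01 in Control, -0.22 in ERI-R, -0.12 in PAC-R and -0.37 in VIN-R. The nuclear genes of the same respiratory complexes lay on the other side. Of these 10 of 24 were lower and none higher, with medians of -0.32 in Control, -1.64 in ERI-R, -0.85 in PAC-R and -0.40 in VIN-R. Cox4i1, a nuclear subunit of cytochrome oxidase, had 225, 173 and 137 CPM in Control 1 to 3, 117, 165 and 898 CPM in ERI-R 1 to 3, 159.9, 134 and 367 CPM in PAC-R 1 to 3 and 209, 138 and 293 CPM in VIN-R 1 to 3. For Cox4i1 the log2 change was -1.39 ± 0.31 (SE). Ndufv1, of complex I, stood at 95.8, 207, 132 and 113 CPM in the 4 without and 37.2 to 62.004 CPM (median 47.7) in the 8 with. In Ndufv1 the log2 difference was -1.45 ± 0.22 (SE).

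Genes of ribosomes and of their assembly stood lower with macrophage transcripts. Of 26 cytosolic ribosomal protein genes 14 were lower (against 8.93% of all tested genes) and none higher, with a median of -1.10 and all 26 fitted changes below 0. By group the medians were -0.33 in Control, -2.47 in ERI-R, -1.11 in PAC-R and -0.50 in VIN-R. Without ERI-R 3 the median was -0.67, and that of the nuclear oxidative phosphorylation list -0.56. Rps19, of the small subunit, had 433, 283 and 259 CPM in Control 1 to 3, 199.6, 272 and 2234 CPM in ERI-R 1 to 3, 238, 232 and 762.2 CPM in PAC-R 1 to 3 and 349, 199.8 and 532 CPM in VIN-R 1 to 3. For Rps19 the log2 change was -1.74 ± 0.37 (SE). Rplp1, of the stalk, stood at 688, 3339, 1291 and 924 CPM in the 4 without and 289 to 676 CPM (median 461) in the 8 with. Rpl18, of the large subunit, stood at 498, 2367, 878 and 621 CPM in the 4 without and 236 to 442 CPM (median 326) in the 8 with. In each of the 3 genes ERI-R 3 was the highest library. Ribosome biogenesis and MYC target genes were lower in 8 of 20, with a median of -0.82. Srm, spermidine synthase and a MYC target, had 55.1, 30.8 and 20.6 CPM in Control 1 to 3, 15.7, 24.7 and 128 CPM in ERI-R 1 to 3, 29.02, 18.3 and 113 CPM in PAC-R 1 to 3 and 28.4, 15.2 and 90.4 CPM in VIN-R 1 to 3, and its log2 change was -2.06 ± 0.27 (SE). Rrp12, a pre-ribosome export factor, stood at 47.1, 70.8, 55.7 and 66.7 CPM in the 4 without and 18.6 to 37.03 CPM (median 22.2) in the 8 with. Myc itself was not counted, at 147, 59.2, 195 and 187 CPM in the 4 without and 85.5 to 162 CPM (median 126) in the 8 with. In Myc the log2 difference was -0.15 ± 0.21 (SE). Of chaperones and translation factors 3 of 20 were lower, near the share over all tested genes (8.93%). They were the factors Eef1d, Eif3b and Eif5a, at -1.39 ± 0.30, -1.04 ± 0.20 and -1.02 ± 0.24 (log2 change and SE).

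Sterol and fatty acid synthesis was lower in 9 of 24 genes, none higher, with medians of -0.97 in Control, 0.26 in ERI-R, -1.28 in PAC-R and -1.22 in VIN-R. Mvd, a decarboxylase of the mevalonate pathway, stood at 21.3, 75.2, 41.7 and 28.9 CPM in the 4 without and 3.103 to 11.3 CPM (median 9.51) in the 8 with. Mvk, the kinase of that pathway, stood at 23.2, 72.6, 36.5 and 24.6 CPM in the 4 without and 5.22 to 13.2 CPM (median 10.2) in the 8 with. Their log2 changes were -2.27 ± 0.32 and -1.95 ± 0.28 (SE). Fasn, fatty acid synthase, had 618, 296 and 180.3 CPM in Control 1 to 3, 190.2, 287 and 562 CPM in ERI-R 1 to 3, 199, 143 and 679 CPM in PAC-R 1 to 3 and 222, 129 and 897 CPM in VIN-R 1 to 3. For Fasn the log2 change was -1.76 ± 0.25 (SE). Hmgcs1, an early enzyme of the same pathway, was not counted, at 263, 82.5, 194 and 249.8 CPM in the 4 without and 100.9 to 286 CPM (median 200.4) in the 8 with. In Hmgcs1 the log2 difference was -0.07 ± 0.40 (SE). Within the pairs the list differed by 1.10 in Control, -0.07 in ERI-R, 0.80 in PAC-R and -1.24 in VIN-R, so its sign was not the same in the 4 groups. Without ERI-R 3 the median over the list was -1.13.

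Proliferation markers mostly had fitted changes below 0, in 21 of 30 cell cycle genes. Of the 30, 5 were counted lower and 1 higher, against 8.93% and 16.8% of all tested genes, with a median of -0.60. The lower ones were Ccne1, E2f1, Mcm5, Mybl2 and Tyms, genes of entry into S phase and of DNA synthesis. Mybl2, a transcription factor of cycling cells, stood at 53.05, 106, 66.04 and 74.5 CPM in the 4 without and 12.3 to 37.3 CPM (median 23.8) in the 8 with. E2f1, the factor that switches on S phase genes, stood at 44.5, 54.95, 62.7 and 65.9 CPM in the 4 without and 13.4 to 40.9 CPM (median 26.4) in the 8 with. Mcm5, of the replicative helicase, stood at 155, 152, 176 and 174 CPM in the 4 without and 52.4 to 135 CPM (median 78.4) in the 8 with. Mki67, the proliferation antigen Ki-67, stood at 819, 356, 505 and 693 CPM in the 4 without and 399 to 1382 CPM (median 593) in the 8 with, and its log2 change was 0.13 ± 0.33 (SE). Bub1, a mitotic checkpoint kinase, was the higher one at 88.99, 15.6, 42.9 and 59.3 CPM in the 4 without and 77.7 to 109 CPM (median 97.7) in the 8 with. Control 1 thus lay within the range of the 8. By group the log2 difference of Bub1 was 0.20 in Control, 2.53 in ERI-R, 1.10 in PAC-R and 0.72 in VIN-R. Of nucleotide synthesis and replication genes 8 of 20 were lower. Tk1, the thymidine kinase of S phase, stood at 86.5, 725, 136 and 126 CPM in the 4 without and 23.4 to 157 CPM (median 54.4) in the 8 with. Lig1, the ligase of replicated strands, stood at 124, 324, 161 and 135 CPM in the 4 without and 44.4 to 91.3 CPM (median 74.6) in the 8 with.

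Of 22 tubulin and actin genes 8 were lower and 2 higher, with a median of -0.87 and with medians below 0 in all 4 groups. Tuba4a, an alpha-tubulin, stood at 63.3, 176, 101.04 and 86.3 CPM in the 4 without and 24.1 to 57.9 CPM (median 33.7) in the 8 with. Tubg1, the gamma-tubulin that nucleates microtubules, stood at 49.9, 169, 78.5 and 73.1 CPM in the 4 without and 17.5 to 43.9 CPM (median 30.3) in the 8 with. Their log2 changes were -1.46 ± 0.27 and -1.52 ± 0.27 (SE). Tubb5, the main beta-tubulin, was not counted at -0.90 ± 0.25 (SE), nor was Actb at -0.11 ± 0.27 (SE). The 2 higher members were genes of contractile cells. Acta2 stood at 0, 0, 0.149 and 0.295 CPM in the 4 without and 0.836 to 11.97 CPM (median 2.61) in the 8 with, and Tagln at 0.0722, 0.315, 0.522 and 0.442 CPM in the 4 without and 0.437 to 4.56 CPM (median 1.58) in the 8 with. Among 24 glycolysis and hypoxia genes 4 were lower and 1 higher, against 8.93% and 16.8% of all tested genes, and the fitted change was above 0 in 12 and below 0 in 12. Eno1, a glycolytic enolase, stood at 2109, 2049.5, 3082 and 2622 CPM in the 4 without and 662 to 1899.5 CPM (median 1053) in the 8 with. Gapdh, a dehydrogenase of the same pathway, stood at 2792, 5059.8, 4405 and 4095 CPM in the 4 without and 1349 to 3121 CPM (median 1862) in the 8 with. YAP and SRF targets were lower in 3 of 20, near the share over all tested genes (8.93%). Ccn1, a matricellular protein, stood at 493.1, 165, 764 and 609.6 CPM in the 4 without and 91.8 to 266 CPM (median 191) in the 8 with. Its relative Ccn2 was not counted at 148, 48.9, 226 and 206 CPM in the 4 without and 22.3 to 107 CPM (median 63.2) in the 8 with.

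Among lower genes, the 12 of largest fitted size were Slc25a48, Tmem265, Pagr1a, Sssca1, Cldn3, Aldh3a1, Hist1h2ap, Mvd, Cdc42ep5, Wfdc2, Rhox4a2 and Epop. Slc25a48, a mitochondrial carrier, had 7.72, 1.26 and 0.873 CPM in Control 1 to 3, 0.457, 6.93 and 20.6 CPM in ERI-R 1 to 3, 0.192, 0.673 and 8.43 CPM in PAC-R 1 to 3 and 0.752, 0.365 and 14.1 CPM in VIN-R 1 to 3. Its log2 change was -3.53 ± 0.59 (SE), and ERI-R 2 lay close to Control 1. Aldh3a1, an aldehyde dehydrogenase, had 98.4, 22.02 and 19.6 CPM in Control 1 to 3, 5.86, 15.2 and 47.8 CPM in ERI-R 1 to 3, 40.2, 40.2 and 286 CPM in PAC-R 1 to 3 and 70.6, 46.2 and 248 CPM in VIN-R 1 to 3. For Aldh3a1 the log2 change was -2.34 ± 0.24 (SE). Hist1h2ap, a replication-dependent histone H2A, had 119.9, 83.3 and 50.6 CPM in Control 1 to 3, 39.7, 86.3 and 1518 CPM in ERI-R 1 to 3, 67.5, 48.98 and 252 CPM in PAC-R 1 to 3 and 100.1, 56.9 and 168 CPM in VIN-R 1 to 3, where ERI-R 3 stood far above every other library. The tight junction gene Cldn3 had 32.8, 37.9 and 455 CPM in ERI-R 1 to 3 and 1.44, 2.36 and 13.4 CPM in PAC-R 1 to 3. The secreted epithelial gene Wfdc2 had 51.1, 33.8 and 549 CPM in ERI-R 1 to 3 and 1.92, 2.27 and 4.104 CPM in PAC-R 1 to 3. Read within each group the library without macrophage transcripts was the highest for all 12, as the rule demands.

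Genes that stood lower had short, GC-rich transcripts. By the longest annotated transcript of each gene the lower genes had a median of 1976 bases and 56.1% GC. The higher genes had 3803.5 bases and 43.4% GC, and all tested genes 3258 bases and 49.3% GC. Genes were placed in 4 bins of about equal number by this length. In the shortest bin, up to 2051 bases, 18.7% were lower and 12.7% higher. In the longest bin, from 4699 bases, 1.91% were lower and 22.3% higher. The median difference went from -0.96 in the shortest to 1.01 in the longest bin in ERI-R and from -0.37 to 0.61 in PAC-R. It went from -0.04 to 0.09 in Control and from -0.08 to 0.20 in VIN-R. The mean transcript length weighted by counts was 3069 bases in ERI-R 3 and 3607 bases in PAC-R 3, against 3750 to 4393 bases in the 8 libraries. The part of transcript length in the results above was not tested.

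**Figure D5:**
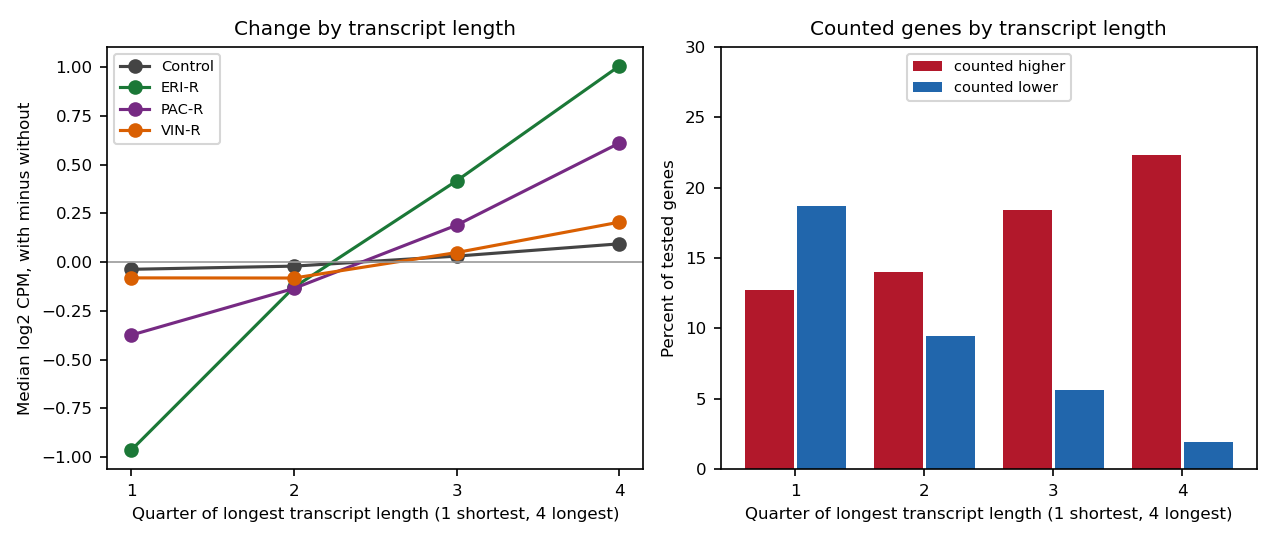
Left, the median over genes of the difference in log2 CPM between libraries with and without macrophage transcripts, by group, for 4 bins of longest transcript length from short to long. Right, the percent of tested genes in each bin counted higher (red) and lower (blue). The slope is steepest in ERI-R, from -0.96 to 1.01, and the share counted lower falls from 18.7% to 1.91%.

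Genes of cell identity differed mainly between the lines. Vim, the mesenchymal filament vimentin, had 3063, 3384 and 2437 CPM in Control 1 to 3, 275, 180.1 and 19.1 CPM in ERI-R 1 to 3, 3561, 2250.5 and 3901 CPM in PAC-R 1 to 3 and 4189, 2428 and 2892 CPM in VIN-R 1 to 3. Cdh1, E-cadherin, had 12.9, 11.7 and 7.07 CPM in Control 1 to 3, 320.0, 297 and 94.2 CPM in ERI-R 1 to 3, 6.42, 10.2 and 1.79 CPM in PAC-R 1 to 3 and 0.919, 3.38 and 0.958 CPM in VIN-R 1 to 3. Neither was counted, and both set ERI-R apart. Krt8, a keratin of simple epithelia, was counted lower at 1089, 917, 2445 and 1651 CPM in the 4 without and 177 to 1394 CPM (median 577) in the 8 with. Krt14, a basal keratin, was not, at 1.88, 923, 0.373 and 0 CPM in the 4 without and 0.0836 to 274 CPM (median 3.36) in the 8 with. The mesenchymal list had 5 higher and 2 lower of 23, the epithelial list 2 and 5 of 24, and the basement membrane list 3 and 0 of 19. Over all tested genes the shares were 16.8% higher and 8.93% lower. The mesenchymal counts and the higher count of the basement membrane list lay near these shares. Without ERI-R 3 the median went from 0.32 to -0.13 for the mesenchymal list, from -0.11 to 0.76 for the epithelial list and from -0.01 to -0.31 for the basement membrane list. Zeb2, a factor of the epithelial-mesenchymal transition that macrophages also express, was higher at 81.1, 1.68, 23.1 and 41.3 CPM in the 4 without and 63.6 to 423 CPM (median 241) in the 8 with. In Zeb2 the log2 difference was 3.13 ± 0.60 (SE). The collagen gene Col1a2 was higher at 0.144, 0.21, 0.0746 and 0 CPM in the 4 without and 1.92 to 36.3 CPM (median 9.44) in the 8 with. Postn, a matrix protein, was higher at 0.217, 22.9, 0.298 and 0.147 CPM in the 4 without and 1.003 to 99.1 CPM (median 8.98) in the 8 with, with ERI-R 3 inside the range of the 8.

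Whether the 4 lines differed where the macrophage transcripts were present was tested among the 8 libraries, whose group labels the split did not use. With edgeR's quasi-likelihood F test, 2848 of 14388 genes (19.8%) differed between the groups at an adjusted p under 0.05. Of the 2396 genes counted higher with macrophage transcripts 244 (10.2%) did, and of the 1229 tested genes counted lower 182 (14.8%). None of 23 macrophage identity genes, 36 interferon-stimulated genes, 17 interferon-inducible GTPases, 26 sensing genes and 20 class I genes passed. Of macrophage activation genes 5 of 23 did, and of phagocyte and lysosome genes 3 of 24. When VIN-R 2 was left out, 5 GTPases, 2 sensing genes and 1 identity gene passed, and when VIN-R 1 was left out, 1 sensing gene and 1 identity gene. With Lyz2 at 284 and 711.5 CPM in the Control pair and 182 and 1388 CPM in the VIN-R pair the spread within groups was wide, and a missing call does not show that the lines had equal levels. The adjusted p (edgeR) was 0.667 for Lyz2, 0.712 for Ptprc and 0.705 for Csf1r. Without the ERI-R libraries edgeR called 0 of all genes, with 527 at an unadjusted p under 0.05. Without ERI-R 1 it called 1476 and without ERI-R 2 1307. With all 4 groups DESeq2 called 3407.

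Among cytokines and their receptors 8 of 30 differed between the lines by this test and among chemokines 3 of 22, against 19.8% of all genes, and none of either list without the ERI-R libraries. The cytokine receptor gene Osmr had means of 97.2 CPM in the ERI-R pair and 9.11 CPM in the Control pair (adjusted p = 0.000294, edgeR), and 31.6 CPM in ERI-R 3. Tslp, an epithelial cytokine, had 3.39 and 90.4 CPM in these pairs (adjusted p = 0.000246, edgeR). Csf2 had 1.41 and 31.5 CPM (adjusted p = 0.000472, edgeR), and Cxcl12 5.48 and 127 CPM (adjusted p = 0.00127, edgeR). The chemokine Ccl20 was called as well, with 7.92 and 0.129 CPM (adjusted p = 0.00354, edgeR). For these 5 genes all libraries of PAC-R and VIN-R lay on the side of Control, away from ERI-R.

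Whether the change that goes with macrophage transcripts differed between the lines was tested as an interaction of group and presence. The edgeR test called 0 of 14226 genes (0%) at an adjusted p under 0.05, with 3283 (23.1%) at an unadjusted p under 0.05, and the DESeq2 likelihood ratio test called 1714. Each group holds a single library without the transcripts, which the fit assumes to vary like the pairs. Interferon-stimulated genes differed within the pairs by medians of 1.47 in Control, 0.06 in ERI-R, 1.29 in PAC-R and 3.08 in VIN-R. Ribosomal protein genes differed by -0.05, -0.46, -0.18 and -0.70 in that order. With so wide a spread, a missing call for interferon genes does not show an equal change in the 4 lines. Without ERI-R 3, 247 genes had an unadjusted p under 0.05 and edgeR called 0. It called 861 without PAC-R 3 and 1032 without VIN-R 2. The gene of lowest p was Rn7s2, a 7SL RNA of the signal recognition particle, with 1.45, 1.45 and 403 CPM in ERI-R 1 to 3 and 2.74, 3.27 and 4.104 CPM in Control 1 to 3 (adjusted p = 0.0616, edgeR). Its near-identical copy Rn7s1 followed, and the 2 share reads. Hmgn5, a nucleosome-binding protein, had 81.1, 71.2 and 485 CPM in ERI-R and 18.7, 25.04 and 20.3 CPM in Control (adjusted p = 0.0772, edgeR). In each of these 3 genes ERI-R 3 was the highest library. Most unadjusted calls over all genes were gone without ERI-R 3, as given above. The list counts given below were not repeated without it, so how far they rest on that library was not tested. The 229 tested genes at 0 counts in all 4 libraries without, 10 of the 22 identity genes among them, could not be called by construction, with an edgeR adjusted p of 1. None of the 36 interferon-stimulated genes, each detected in at least 1 of the 4, reached an unadjusted p under 0.05, while 20 of 26 ribosomal protein genes and 13 of 24 nuclear oxidative phosphorylation genes did.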

How the data were processed

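RNA of 12 samples was sequenced as 76-base paired reads from 200 ng of input, per the labels' protocols. The submitters' processing notes name RSEM 1.3.2, STAR 2.7.2b, cutadapt 2.4 and bcl2fastq 2.20.0.422, with GRCm38 as the build. The authors deposited RSEM expected counts and TPM for each of 55573 genes per library, per the file headers. Which annotation release they counted on, and with which strand option, is not given in the sources used here. Positions and transcript lengths came from GENCODE M21, and promoters from RefSeq on GRCm38.p6.

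Expected counts were rounded to whole numbers, which changed 15.3% of the values above 0. They were filtered by edgeR's expression filter (14226 genes) and scaled by TMM (edgeR 4.0.16, R 4.3.3). Log2 changes and their SE came from the quasi-likelihood fit with the group as a block, on 7 residual degrees of freedom. Log2 CPM used a prior count of 1. Differences between the groups among the 8 libraries, and the interaction of group and presence, were tested with F tests and Benjamini-Hochberg adjustment at 0.05. DESeq2 1.42.0, other scalings, filters and libraries left out were tried as alternatives. The scripts were tested on simulated data. No 2 libraries agreed within sampling noise.

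The split, the members and the 34 gene lists were chosen with earlier results of these data known. Of 756 list symbols 751 matched the files. Named genes were a fixed set, the 12 largest differences in each direction (mean of 5 CPM or more), up to 3 counted genes per list and direction, list members that differed between the groups among the 8, the 8 lowest p of the interaction and the 8 patterns nearest to Lyz2. Promoters are shown for the higher members of highest level in the named lists that held the letters. Other genes are said to be named after their values were seen. Counting intervals and the floor of 3 counts cover counting error only, and reads carried no stated molecular identifiers. Some list members are not reported here by name.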

Additional observations from a re-analysis of the deposited data

Results flagged for a closer look

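The mean log2 CPM of each gene list and the composition of each library were searched for a library far from the others, separately in the 8 libraries and in the 4, over 77 sets of values. A library stood apart in 8 of them. Among like libraries chance sets apart a library in about 1 of 20 independent sets. Each of the 4 came from a different line, and all sets rest on the same libraries. The count of 8 can therefore not be set against that rate.

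ERI-R 3 was the library apart in 7 sets, all among the 4 libraries without macrophage transcripts. It was lowest for macrophage activation genes, with a mean of -0.6177 against 0.9934 in the nearest library, and for phagocyte and lysosome genes, with 1.0557 against 2.0815. It was also lowest for YAP and SRF targets (5.0778 against 7.2745), mesenchymal genes (2.2959 against 5.3480), basement membrane genes (3.1972 against 5.8007) and stress response genes (5.4733 against 6.2408). It was highest for acute-phase genes, with 4.0026 against 1.7637. For mesenchymal genes ERI-R 1 and 2 had means of 4.2265 and 3.6178, and for YAP and SRF targets 5.6636 and 5.2218. In these lists, and for basement membrane and stress response genes, both lay below every other library of the 8. This was not so for the macrophage activation, phagocyte and lysosome, and acute-phase lists. Whether the line or the single library set ERI-R 3 apart was not tested. Among the 8 libraries with macrophage transcripts, ERI-R 2 was highest for p53 targets, with 6.6704 against 5.9630 in the nearest library.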

How the results depend on the processing

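The genes higher and lower with macrophage transcripts numbered 2383 and 1285 with DESeq2 size factors, 2455 and 1079 with total counts, 2519 and 1096 with TMM factors from genes not counted, and 2102 and 1668 with upper-quartile scaling, which moved the median of all genes from 0.06 to -0.07. Without the filter on low counts they were 2529 and 1412, with 1 CPM in at least 4 libraries 2317 and 1232, and without the group in the fit 2261 and 1333. Larger shifts came with stricter or looser demands: 1605 and 600 where the 8 and the 4 did not overlap, 1092 and 47 at 4-fold, 3678 and 3266 with edgeR's adjusted p as a filter, and 4180 and 3605 with that of DESeq2, in which p was only a filter. Leaving out 1 library at a time gave 2314 to 3086 higher and 882 to 1750 lower genes, and without the ERI-R libraries, chosen after seeing the data as was the scaling on genes not counted, 2297 and 749.

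The labels tie the replicate numbers to no shared culture or day. Deviations of same-numbered libraries from their group means, which carry the split by macrophage transcripts, correlated between -0.863 and 0.917 over 18 pairs, so the numbers were not taken as pairing the samples and whether they do was not settled. With a replicate block added, 2134 genes were higher and 862 lower.

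Interaction calls numbered 0 with edgeR, 1714 with DESeq2, 2267 without the filter, 614 with total counts, and between 0 and 1032 with 1 library left out. Calls between groups among the 8 libraries lay between 1307 and 3353 with 1 library left out, and at 0 without the ERI-R libraries. The cause of these shifts was not tested. No named gene that was counted higher or lower changed direction. For named genes that were not counted, a change of sign was not tallied. List medians near 0 (glycolysis, epithelial, mesenchymal and basement membrane genes) changed sign under some alternatives, and 55 of 714 list medians and 95 of 4758 gene values moved by more than their spread.

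The limits are those of the design. A single library without the transcripts in each group leaves the spread of that state unmeasured within a group, and its differences from the pair may belong to that library. Total counts of 11141028 or more make 3 counts, the floor used here, at most 0.269 CPM in a single library, and lower values rest on 1 or 2 counts.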

Other observations

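Cell death genes were higher with macrophage transcripts in 9 of 23 tested members and lower in 1, against 16.8% and 8.93% of all tested genes. Their medians were 0.53 in Control, 1.01 in ERI-R, 0.84 in PAC-R and 0.58 in VIN-R. Ripk3, the kinase of necroptosis, stood at 0, 0, 0 and 0.0737 CPM in the 4 without and 0.251 to 5.02 CPM (median 1.31) in the 8 with. Bax, the pore-forming effector of apoptosis, was the lower member at 78.1, 426, 142 and 107 CPM in the 4 without and 51.1 to 93.7 CPM (median 63.9) in the 8 with, a log2 change of -1.25 ± 0.33 (SE). Among p53 targets 6 of 20 were higher and 1 lower, against the same shares of 16.8% and 8.93%, with a median of 0.33. Fas, a death receptor held by both lists, stood at 0, 6.41, 1.49 and 0.664 CPM in the 4 without and 2.59 to 17.4 CPM (median 8.15) in the 8 with, and Phlda3, an inhibitor of AKT, was the lower p53 target at 52.4, 468, 110.1 and 85.1 CPM in the 4 without and 25.8 to 106 CPM (median 34.6) in the 8 with. Within the pairs the p53 list differed from the Lyz2-poorer library by -0.17 in Control, -0.86 in ERI-R, 0.14 in PAC-R and 0.52 in VIN-R.

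Stress response genes gave 3 higher and 3 lower of 24, near the shares over all tested genes (16.8% higher and 8.93% lower). Atf3, an early stress factor, stood at 33.6, 5.04, 25.5 and 25.95 CPM in the 4 without and 31.4 to 185 CPM (median 81.01) in the 8 with. The lower ones were Calr, Creld2 and Sdf2l1, and Sdf2l1, a chaperone cofactor, stood at 20.6, 42.3, 26.2 and 31.998 CPM in the 4 without and 6.31 to 18.5 CPM (median 15.3) in the 8 with. Of antioxidant and iron genes 3 of 19 were higher and 2 lower, again near these shares. Of the superoxide dismutases, Sod2 was higher, as given above, while the cytosolic Sod1 was lower at 167, 466, 303 and 246 CPM in the 4 without and 77.7 to 197 CPM (median 131) in the 8 with and the extracellular Sod3 at 5.49, 0.735, 36.1 and 22.7 CPM in the 4 without and 0.0762 to 12.95 CPM (median 4.705) in the 8 with.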
